A study of Mus musculus with 6 samples.

Results

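Interferon-stimulated genes were examined in the RNA of cells purified as bone endothelial cells (BECs) from young adult female and male mice. The 39 genes were taken by name from the 37991 genes of the count table, and all 39 were found. The 6 libraries, 3 from females and 3 from males, came from c57/Bl6 mice aged 12 weeks with no treatment named, and the labels describe the cells as fresh from the tibia and purified by endomucin, a surface protein of the sinusoidal and type H vessels of bone. The comparison is between the sexes, and asks how far the transcripts of such purified cells differ between female and male mice of this age. The labels number the libraries within each sex and do not say which animals they came from, so the errors and p-values below measure the spread between these libraries. Levels are CPM, edgeR's read counts scaled to library size, after TMM normalization, which also allows for composition.

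Type I interferons bind a receptor made of IFNAR1 and IFNAR2, whose kinases JAK1 and TYK2 phosphorylate STAT proteins, STAT2 among them. With IRF9 these form a complex that binds the interferon-stimulated response element (ISRE) in the promoters of its target genes, and many of the targets encode proteins that sense viral RNA, degrade it or block its translation. One target, IRF7, raises interferon production further, while USP18 and SOCS proteins damp the signal. Cells also hold a low level of these transcripts without infection.

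The libraries held between 47678806 and 58325745 counts, at which 3 counts correspond to between 0.0477 and 0.0639 CPM on the TMM scale. This floor covers counting error only. No 2 libraries agreed within sampling noise. All 12 endothelial marker genes on the list used were detected in every library, and their summed level was between 328 and 456 CPM in females and between 188 and 285 CPM in males. Emcn, which encodes endomucin, was between 5.35 and 10.5 CPM in females and between 3.08 and 6.72 CPM in males. The 14 neutrophil markers summed to between 18649 and 22662 CPM in females and between 31623 and 43411 CPM in males, so neutrophil transcripts were abundant in these libraries. Of these 14 neutrophil markers, 11 were higher in every male library than in any female library, beside 7.25% of all genes tested. The sexes overlapped for Elane, Mpo and Prtn3, with log2 fold changes, males over females, of 0.17, -0.61 and 0.19. The 8 erythroid markers summed to between 12271 and 17639 CPM in females and between 18595 and 27332.5 CPM in males. The 7 B cell markers found summed to between 2794 and 3205 CPM in females and between 2811 and 3240 CPM in males. In such bulk samples, fewer cells of a type and less RNA per cell cannot be told apart. The part of these cell types in the results below was not tested.

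All 39 interferon-stimulated genes were transcribed in every library at levels above the floor. The mean over the 6 libraries was lowest for Mx2, at 2.55 CPM, and highest for Ifitm3, at 148 CPM. Per kilobase of the annotated canonical transcript, Ifi27l2a was highest with a mean of 167 CPM per kilobase, followed by Ifitm3 with 116, Bst2 with 78.2, Epsti1 with 42.0 and Isg15 with 36.3. The lowest on this scale were Mx1 with 2.54 CPM per kilobase, Ifit1 with 2.29 and Mx2 with 1.05. Summed over the 39 genes, the level was 1582, 1928 and 1797 CPM in female replicates 1, 2 and 3 and 1589.7, 2233 and 1689 CPM in male replicates 1, 2 and 3. The sexes overlapped, and replicate 2 was highest and replicate 1 lowest within each.

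By the quasi-likelihood test of edgeR, no interferon-stimulated gene separated females from males once p was adjusted over the 19480 genes tested (threshold 0.05), of which 0.0411% passed. DESeq2's Wald test also called none of the 39, where 2.08% of the genes with an adjusted p passed. At an unadjusted p under 0.05 in edgeR, 3 of the 39 passed, Oas3 and Isg20 with higher values in males and Gbp3 with higher values in females, beside 9.79% of all genes tested. Oas3 and Isg20 were higher in every male library than in any female library (7.25% of all genes), and Gbp3 was higher in every female library (7.29% of all genes). In the other 36 the sexes overlapped. In this fit, these shares of the 39 are not above those of all genes.

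The log2 fold changes, males over females, were positive for 20 genes and negative for 19, with a median of 0.018, a lowest value of -0.46 (Gbp3) and a highest of 0.69 (Mx2). Over all genes tested the median was -0.0012. The median size of the change, regardless of sign, was 0.18 on the log2 scale for the 39 and 0.19 for all genes. The 95% confidence interval of the change lay within 2-fold either way for 35 of the 39 and within 1.5-fold for 16. The smallest adjusted p was 0.207 in edgeR, for Gbp3. The number at an unadjusted p under 0.05 moved with the libraries and settings used. With all libraries it was 5 of 39 (12.8%) with no filter on low counts, beside 8.22% of all genes, and 4 (10.3%) by DESeq2, beside 8.06%. It was 2 (5.13%) without female replicate 1, beside 11% of all genes, and 6 (15.4%) without male replicate 1, beside 10.5%. Without female replicate 3 it was 4 (10.3%), beside 6.71%. It was 6 (15.4%) without male replicate 2, beside 4.84%, and 7 (17.9%) without male replicate 3, beside 14.2%. In none of these fits did a gene of the 39 pass the adjusted threshold.

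**Figure D1:**
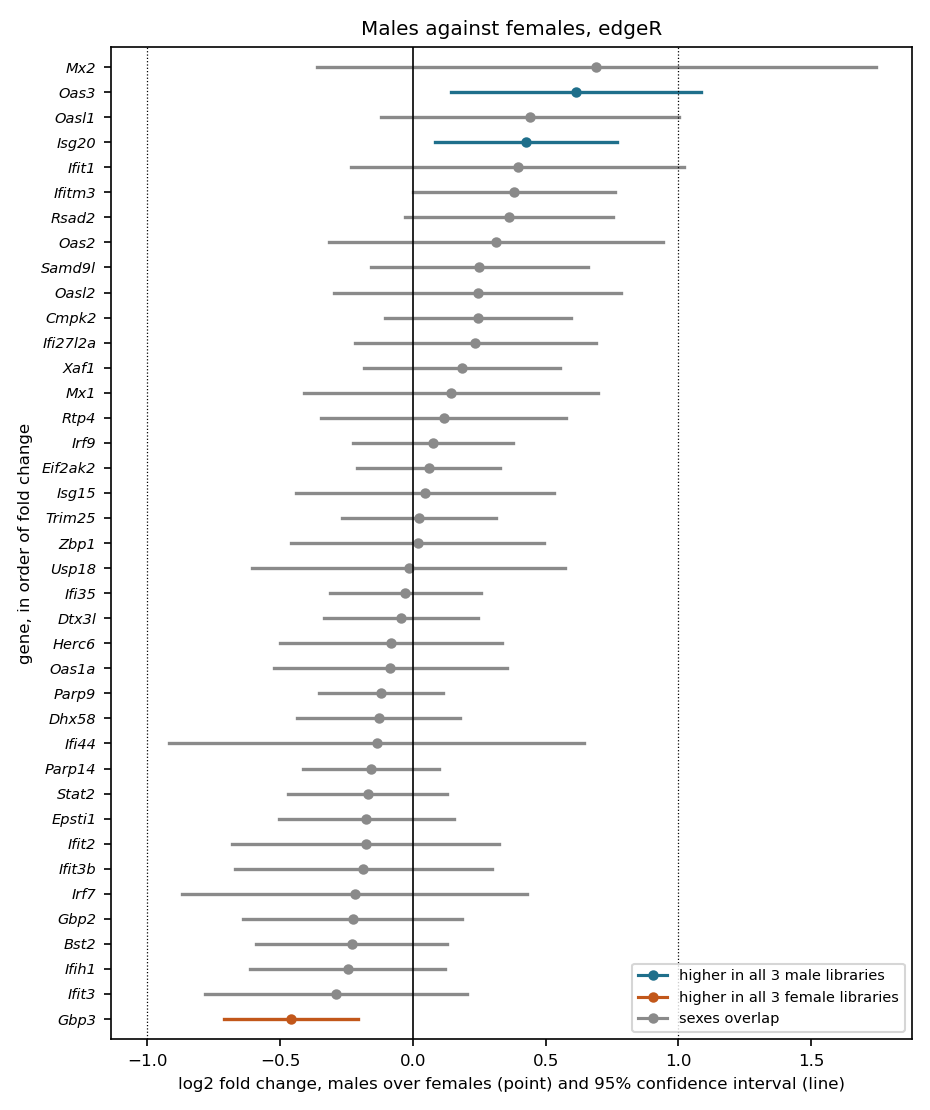
Log2 fold change of each interferon-stimulated gene, males over females (point), with its 95% confidence interval from edgeR (line), in order of the fold change. Dotted lines mark a 2-fold difference either way, which the intervals of 35 genes do not cross, and colours mark Oas3, Isg20 and Gbp3, whose sexes did not overlap.

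GBP3 is a guanylate-binding protein, a GTPase that gathers on the membranes of intracellular pathogens. Gbp3 stood at 37.7, 40.2 and 38.1 CPM in female replicates 1, 2 and 3 and at 26.3, 30.2 and 27.9 CPM in the male replicates. The lowest female library was above the highest male library. The log2 fold change was -0.46 ± 0.11 (SE, n = 3 per sex; edgeR, adjusted p = 0.207). The neighbouring Gbp2, of the same family, lay between 30.5 and 35.1 CPM in females and between 19.8 and 34.6 CPM in males, so that its sexes overlapped. The other GTPases, Mx1 and Mx2, were the scarcest of the 39 by CPM together with Ifi44. Mx1 was between 5.67 and 9.74 CPM over the 6 libraries and Mx2 between 1.14 and 5.19 CPM, and both extremes of Mx2 were male libraries.

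The oligoadenylate synthetases are switched on by double-stranded RNA and make 2′-5′-linked oligoadenylates from ATP, which activate the nuclease RNase L. Oas3, which binds long double-stranded RNA, stood at 41.9, 63.0 and 50.3 CPM in female replicates 1, 2 and 3 and at 63.4, 107 and 67.6 CPM in the male replicates. The highest female library was just below the lowest male library, and male replicate 2 was apart from all others. The log2 fold change was 0.62 ± 0.21 (SE, n = 3 per sex; edgeR, adjusted p = 0.375), and it was 0.34 without male replicate 2. Oasl1, an inhibitor of Irf7 translation, was at 9.98, 12.7 and 10.9 CPM in females and 10.6, 22.0 and 12.96 CPM in males. It overlapped between the sexes, again with male replicate 2 highest. Oas1a, Oas2 and Oasl2 also overlapped, with log2 fold changes of -0.085, 0.31 and 0.24.

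Isg20, an exonuclease for single-stranded RNA, stood at 21.0, 26.5 and 25.6 CPM in female replicates 1, 2 and 3 and at 36.3, 35.2 and 26.7 CPM in the male replicates. Male replicate 3 was only slightly above female replicate 2. The log2 fold change was 0.43 ± 0.15 (SE, n = 3 per sex; edgeR, adjusted p = 0.393). Rsad2, which encodes viperin and makes a chain-terminating ribonucleotide, and Cmpk2, its neighbour on chromosome 12 that supplies the nucleotide substrate, overlapped between the sexes. Rsad2 was at 58.0, 69.9 and 77.1 CPM in females and 92.5, 105 and 65.8 CPM in males. Cmpk2 was at 38.4, 52.8 and 52.0 CPM in females and 53.2, 66.3 and 49.9 CPM in males. Samd9l, a translation inhibitor, was at 89.1, 73.1 and 66.8 CPM in females and 88.0, 115 and 69.1 CPM in males. The log2 fold changes of the genes of this group were between 0.24 and 0.43, all 4 positive, and none passed the adjusted threshold. Without male replicate 2 that of Samd9l was 0.043, that of Cmpk2 0.11 and that of Rsad2 0.21, and without female replicate 1 that of Cmpk2 was 0.12.

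Ifitm3, a membrane protein that blocks the entry of enveloped viruses, was the most abundant by CPM. It stood at 115, 134 and 137 CPM in female replicates 1, 2 and 3 and at 127, 207 and 168 CPM in the male replicates, so that male replicate 1 lay within the female range. Its log2 fold change was 0.38 ± 0.17 (SE, n = 3 per sex; edgeR, adjusted p = 0.508), and it was 0.20 without male replicate 2. Bst2, or tetherin, holds budding virions on the cell surface and is also a marker of plasmacytoid dendritic cells. It lay between 62.2 and 75.8 CPM in females and between 45.8 and 71.6 CPM in males.

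**Figure D2:**
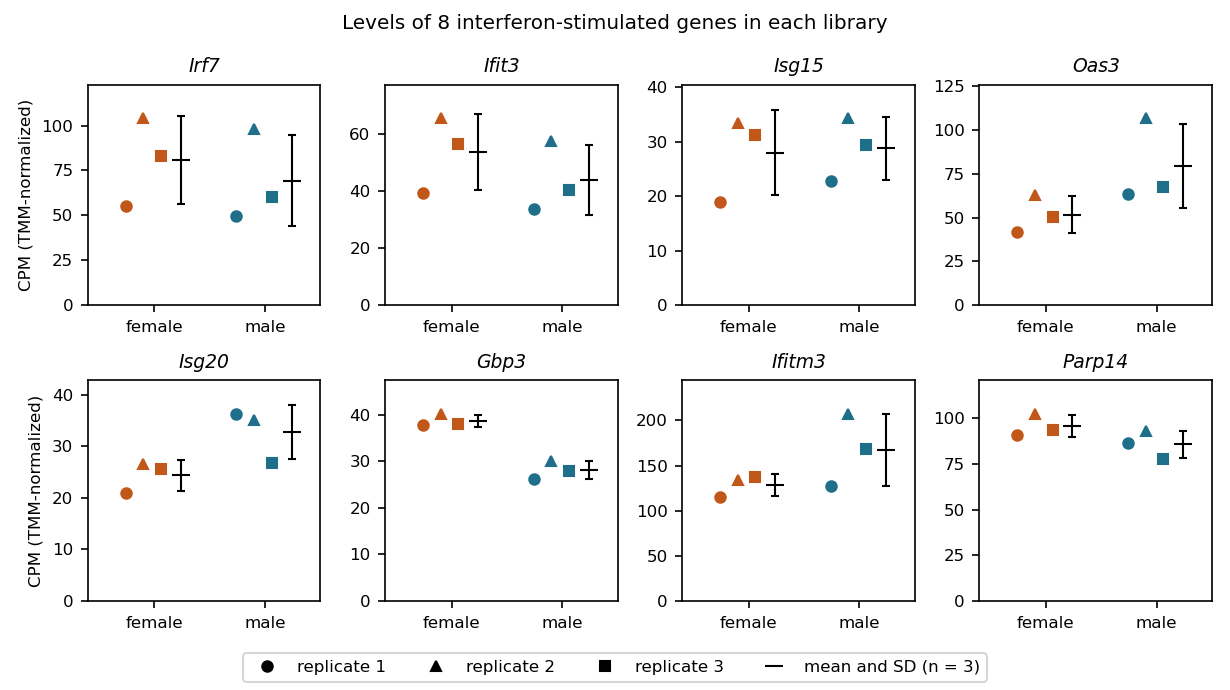
TMM-normalized CPM of 8 interferon-stimulated genes in each library, with female libraries in orange and male libraries in blue, a symbol for each replicate number, and the mean and SD (n = 3) beside each sex. Gbp3, Oas3 and Isg20 do not overlap between the sexes, and the replicate 2 libraries (triangles) are the highest of their sex for Irf7, Ifit3, Isg15 and Oas3.

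Of the transcription factors, Irf9 and Stat2, the DNA-binding and activating subunits of the ISRE complex, varied less than Irf7. Irf9 was at 78.9, 88.3 and 72.3 CPM in females and 75.1, 98.5 and 78.8 CPM in males. Stat2 was at 60.7, 58.7 and 52.4 CPM in females and 52.0, 58.1 and 42.7 CPM in males. Both overlapped between the sexes. Irf7 varied far more from library to library, at 55.1, 104 and 83.1 CPM in female replicates 1, 2 and 3 and 49.7, 98.1 and 60.4 CPM in the male replicates. The replicate 2 libraries stood at nearly double the replicate 1 libraries in both sexes, while the means of the sexes differed by less than their spread (log2 fold change -0.22 ± 0.29, SE, n = 3 per sex; edgeR, adjusted p = 0.845). Without female replicate 2 this fold change was 0.0045, so that its sign rests on that library.

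The sensors of viral nucleic acid among the interferon-stimulated genes did not separate by sex. Sensors outside this list, such as Tlr7, are treated below with the pathway genes. Ifih1, which encodes the double-stranded RNA sensor MDA5, was at 25.1, 31.2 and 34.4 CPM in females and 24.1, 30.6 and 21.8 CPM in males. Dhx58 (LGP2), Zbp1 and the RNA-dependent kinase Eif2ak2 (PKR) had log2 fold changes of -0.13, 0.018 and 0.060. Of the ISG15 group, Trim25, a ubiquitin ligase that activates RIG-I, was at 86.6, 84.8 and 86.9 CPM in females and 93.7, 96.9 and 71.8 CPM in males. Its male values surrounded the female ones. Isg15, the ubiquitin-like modifier, the protease Usp18 that removes it and the ligase Herc6 had log2 fold changes of 0.045, -0.016 and -0.082.

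The PARP9 and PARP14 group, ADP-ribosyltransferases with the ubiquitin ligase partner DTX3L, varied least among the role groups, with a median range from lowest to highest library of 0.17 on the log2 scale in females and 0.25 in males. Parp14 was at 91.0, 102 and 93.5 CPM in females and 86.2, 92.9 and 77.9 CPM in males. Dtx3l was at 79.5, 86.5 and 91.2 CPM in females and 79.8, 96.7 and 72.8 CPM in males. The 3 genes of the group had log2 fold changes between -0.16 and -0.045, with overlapping sexes. Parp9 and Dtx3l overlap at their starts on opposite strands, on chromosome 16 of GRCm39 from 35758840 to 35792980 and from 35746881 to 35759521, and could share reads if strand was not used in counting.

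Of the remaining induced proteins, Ifi27l2a was at 64.0, 77.6 and 76.7 CPM in females and 59.2, 114 and 84.0 CPM in males. Epsti1 was at 66.8, 89.4 and 93.7 CPM in females and 66.1, 73.0 and 82.2 CPM in males. Neither separated by sex. Xaf1, Rtp4, Ifi35 and Ifi44 also overlapped, with log2 fold changes of 0.18, 0.12, -0.029 and -0.14.

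Libraries of the same sex also differed. The median range from lowest to highest library was 0.35 on the log2 scale in females and 0.70 in males over the 39 genes, beside 0.43 and 0.47 over all genes tested. Of the 39 genes, 23 were highest in male replicate 2 (59%, beside 21.8% of all genes tested) and 12 in female replicate 2 (30.8%, beside 16.2%), and none was lowest in either of these libraries. The lowest library was male replicate 1 for 18 genes, male replicate 3 for 10 and female replicate 1 for 9. Replicate 2 was the highest and replicate 1 the lowest library of its sex, in females and in males alike, for 18 of the 39 genes (46.2%), beside 1.9% of all genes tested. Among the 12935 genes whose mean lay in the range of the 39, between 2.55 and 148 CPM, 1.84% had this order. This pattern was noticed after the values were seen and is given as a description. The replicate numbers are not known to mark a shared batch or litter.

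**Figure D3:**
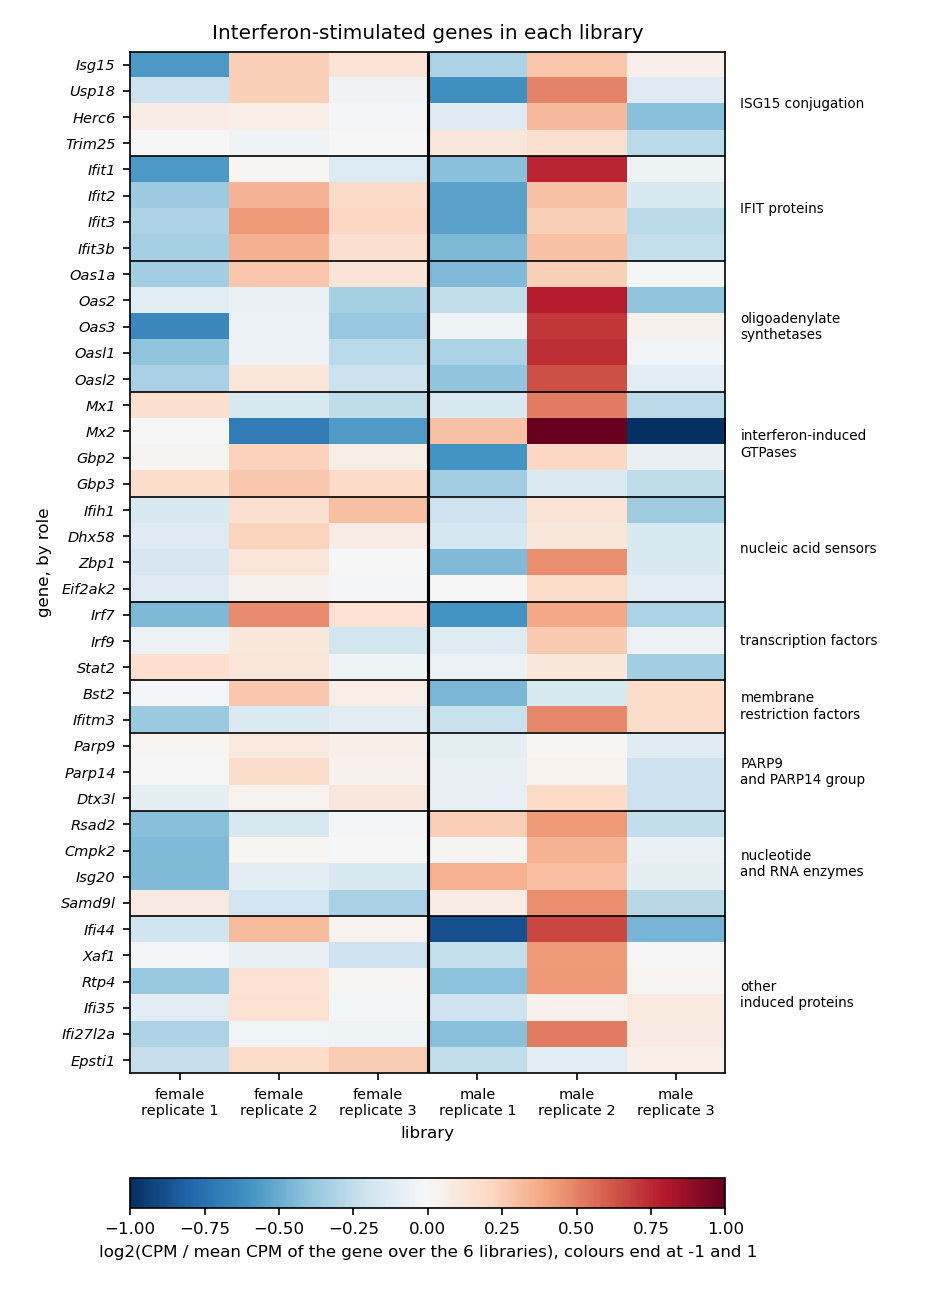
Level of each interferon-stimulated gene in each library as log2 of its CPM over its own mean across the 6 libraries, with genes grouped by role and the sexes divided by the vertical line. The columns of both replicate 2 libraries are mostly above the mean (red) and those of the replicate 1 libraries mostly below it (blue), while the rows of the PARP9 and PARP14 group are pale.

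The 18 genes were all 4 IFIT genes, 4 of the 5 oligoadenylate synthetases (all but Oas2), Isg15 and Usp18, Gbp2 and Gbp3, Zbp1 and Dhx58, Irf7, and Ifi44, Rtp4 and Ifi27l2a. None was from the membrane proteins, the PARP9 and PARP14 group or the nucleotide and RNA enzymes. Replicate 2 exceeded replicate 1 by a median of 0.52 on the log2 scale in females and 0.84 in males over these 18, which the choice of the genes favours. Over all 39 the medians were 0.29 and 0.66, and over all genes tested they were -0.0058 and 0.0033. Replicate 2 was above replicate 1 in both sexes for 31 of the 39 genes, beside 24.8% of all genes.

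The following 4 genes were chosen after their values were seen, to show the pattern. Ifi44, a cytoplasmic protein of little-known action, had the widest male range after Mx2, with 4.84, 14.2 and 6.47 CPM in male replicates 1, 2 and 3 beside 7.74, 11.1 and 9.16 CPM in the female replicates. Ifit3, of the IFIT group, was at 39.4, 65.5 and 56.4 CPM in females and 33.8, 57.7 and 40.5 CPM in males. Isg15 was at 19.0, 33.5 and 31.3 CPM in females and 22.7, 34.3 and 29.4 CPM in males. Usp18 was at 8.93, 12.2 and 10.1 CPM in females and 6.79, 14.6 and 9.50 CPM in males. In each of the 4, the sexes overlapped. Ranked among the 12935 genes of like level by the smaller of the 2 ratios of replicate 2 over replicate 1, Irf7 stood at 3, Ifit3 at 11, Ifit2 at 13 and Ifit3b at 15, and 8 of the first 50 genes were among the 39.

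**Figure D4:**
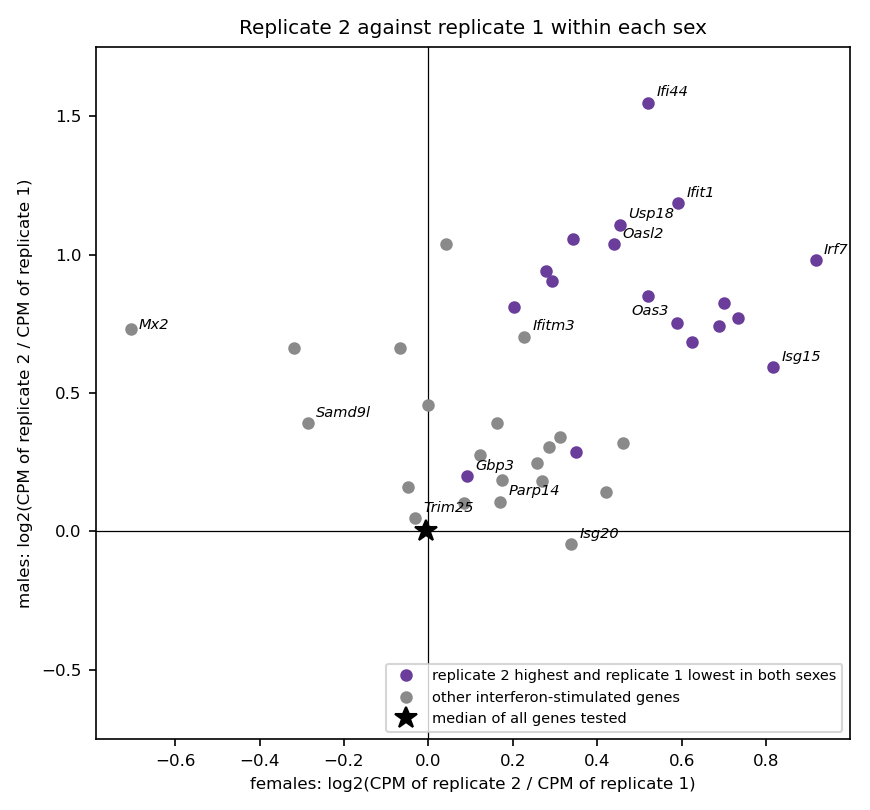
Log2 ratio of replicate 2 over replicate 1 in females (horizontal axis) and in males (vertical axis) for each interferon-stimulated gene, from TMM-normalized CPM. The 18 genes with replicate 2 highest and replicate 1 lowest in both sexes (purple) lie in the upper right, and the median of all genes tested (star) lies at the origin.

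Of the marker lists of other cells, only that of neutrophils had this order in its summed level in both sexes. The summed level of the 14 neutrophil markers was lowest in replicate 1 and highest in replicate 2 in both sexes, with 18649, 22662 and 21959 CPM in females and 31623, 43411 and 38677 CPM in males. This sum was mostly S100a8 and S100a9, which both had the order, and 5 of the 14 had it themselves. Ltf, Mmp9, Elane, Mpo and Prtn3 were highest in replicate 3 in females, so the order of the sum does not stand for the whole list. The 12 endothelial markers summed to 446, 328 and 456 CPM in females and 255, 188 and 285 CPM in males, lowest in replicate 2 in both sexes. The 8 stromal markers were likewise lowest there, with 2865, 1467 and 3009 CPM in females and 1780.4, 1226 and 2353 CPM in males. The sums of both lists were highest in replicate 3. The monocyte and macrophage markers summed to 5014, 5183 and 4907 CPM in females and 3721, 3478 and 4477 CPM in males and did not have the order. Siglech, a marker of plasmacytoid dendritic cells, which are known for making interferon, was at 20.4, 19.2 and 22.1 CPM in females and 19.7, 29.3 and 24.4 CPM in males, so that it had the order in males and not in females. The sum over the 8 markers of these cells, between 533 and 604 CPM, was mostly Ly6d and Tcf4, which other cells also express, and it included Bst2. The part of these cell types in the pattern was not tested. Between the sexes, the summed neutrophil markers had a mean of 21090.1 ± 2143 CPM in females and 37904 ± 5932 CPM in males (SD, n = 3), while the sum over the interferon-stimulated genes was 1769 ± 175 and 1837 ± 347 CPM (SD, n = 3). With total counts alone in place of TMM, 12 of the 39 genes had the order, beside 0.909% of all genes.

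Promoter sequences were compared with the ISRE as a description of the 39 genes. These genes were listed by name as interferon-stimulated, so a raised share of matches is built into that choice and does not bear on the order of libraries. RefSeq windows on GRCm38.p6, from 250 bases before to 50 bases after each annotated start, were at hand for 29 of the 39 genes. The ISRE was searched on both strands as GAAA followed, after any 2 bases, by another GAAA. It was found for 14 of the 29 genes (48.3%), beside 3.99% of the 27025 genes in the table. The GAS element of the interferon gamma response, TTCNNNGAA, was found for 7 of the 29 (24.1%), beside 9.55%, and 2 of these 7 matches overlapped an ISRE match. Of the 18 genes with the shared order, 13 had a window and 8 of them an ISRE match. Of the other genes, 16 had a window and 6 a match. A match is a run of letters and not a measured binding site.

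Stretches around the ISRE matches of 6 genes are printed on the strand of the gene, ending before its annotated start, with the matches in capitals. They show Oas3 and Gbp3, whose sexes did not overlap, and 4 genes of the shared order from the ISG15, IFIT and oligoadenylate synthetase groups. Capitals with TTTC are matches on the opposite strand. Isg15 is at chr4:156200830-156200941 on the minus strand and holds 3 overlapping matches. Ifit1 is at chr19:34640740-34640858 on the plus strand, Ifit3 at chr19:34583328-34583461 on the plus strand, and Oas1a at chr5:120907526-120907590 on the minus strand. Oas3 is at chr5:120777680-120777779 on the minus strand and Gbp3 at chr3:142559954-142560043 on the plus strand.
Isg15: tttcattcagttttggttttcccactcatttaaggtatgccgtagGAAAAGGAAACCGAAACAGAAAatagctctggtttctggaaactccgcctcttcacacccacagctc
Ifit1: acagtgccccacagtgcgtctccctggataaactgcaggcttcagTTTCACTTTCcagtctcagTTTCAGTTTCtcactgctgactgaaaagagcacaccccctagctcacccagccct
Ifit3: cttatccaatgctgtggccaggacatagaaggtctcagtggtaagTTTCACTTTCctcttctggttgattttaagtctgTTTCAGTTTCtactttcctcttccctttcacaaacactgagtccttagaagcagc
Oas1a: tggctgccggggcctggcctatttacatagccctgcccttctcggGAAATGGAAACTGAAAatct
Oas3: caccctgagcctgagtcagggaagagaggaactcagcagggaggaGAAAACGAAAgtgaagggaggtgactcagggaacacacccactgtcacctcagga
Gbp3: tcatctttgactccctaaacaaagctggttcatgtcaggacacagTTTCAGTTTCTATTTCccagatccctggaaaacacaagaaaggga

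The first match began 78 bases before the start in Isg15, 104 in Ifit1, 156 in Ifit3, 20 in Oas1a, 75 in Oas3 and 45 in Gbp3. The Ifit3 stretch of 134 bases was found unchanged in the window of Ifit3b, its neighbour on chromosome 19. Irf7, Isg20, Irf9 and Trim25 had windows without these letters in them.

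**Figure D5:**
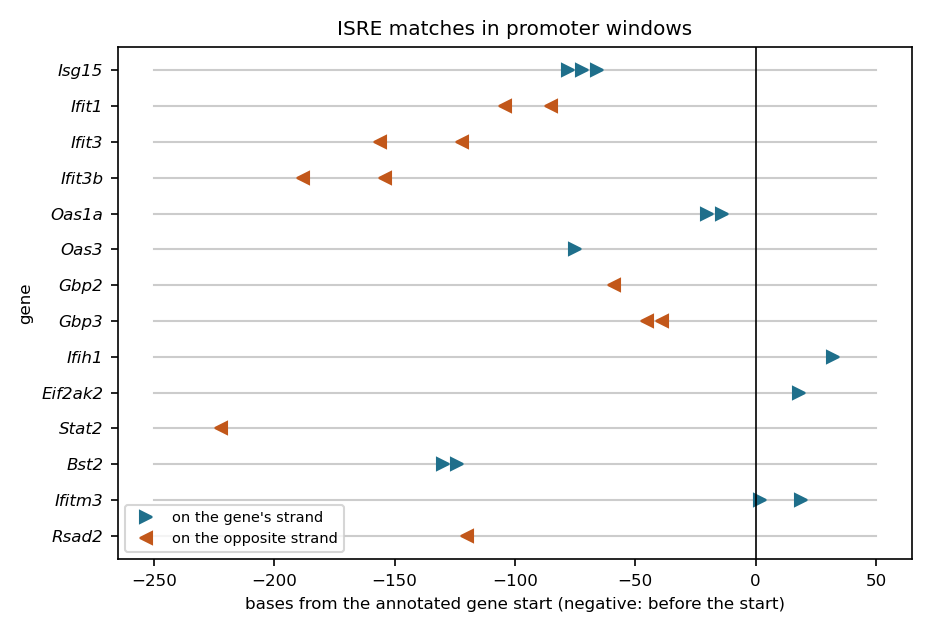
Position of each ISRE match relative to the annotated start of 14 interferon-stimulated genes in RefSeq promoter windows (grey lines, from 250 bases before to 50 bases after the start), with arrowheads for the strand. Of the 23 matches, 19 lie before the start, and those of Ifih1, Eif2ak2 and Ifitm3 lie after it.

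The likeness of Ifit3 and Ifit3b extends to their transcripts, so their counts are uncertain. Of the 40-base windows of the Ifit3 transcript, 51.3% also occur in Ifit3b, and of the 100-base windows 26.6% do. The count of Ifit3 was between 1.65 and 1.70 times that of Ifit3b in females and between 1.54 and 1.59 times in males. Oas1a shares 62.3% of its 40-base windows with Oas1g, which is not among the 39. How the counting placed such reads is not given in the sources used here.

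The genes that carry the interferon signal were compared in the same way. Of 62 listed ligands, receptors, kinases, factors, sensors, inhibitors and interferon gamma targets outside the 39, 57 were found and 49 passed the filter on low counts. In edgeR, none of the 49 passed an adjusted p of 0.05. At an unadjusted p under 0.05, 8 passed (16.3%, beside 9.79% of all genes tested), 3 with higher values in males and 5 with higher values in females. DESeq2 called 1, Socs3, where it called 2.08% of all genes with an adjusted p. Every female library was above every male library for 8 of the 49 (16.3%, beside 7.29% of all genes), and every male library was above every female one for 3 (6.12%, beside 7.25%). No test was made of these shares. The log2 fold changes were positive for 18 and negative for 31, with a median of -0.090. Of the 13 interferon gamma targets tested, 12 had a negative value, beside 9781 of the 19480 genes tested, and their median was -0.14. In edgeR, 2 of the 13 passed an unadjusted p of 0.05 (15.4%, beside 9.79% of all genes), and the sexes overlapped for 11. The median over the pathway genes was -0.015 without female replicate 2, -0.033 without female replicate 1, -0.15 without female replicate 3 and -0.057 without male replicate 3. The summed level of the 12 monocyte and macrophage markers was also lower in males, at 5034 ± 139 CPM in females and 3892 ± 521 CPM in males (SD, n = 3). Of these 12 markers, 8 were higher in every female library, beside 7.29% of all genes. The list did not move as one, since Ly6c2, a marker of monocytes, was higher in every male library, with a log2 fold change of 0.55, and Ccr2, the receptor of monocytes for the chemokine Ccl2, had a value of 0.22 with groups that overlapped. Their part in these values was not tested.

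Transcripts of the interferons themselves were hardly seen. Of 9 ligand genes in the table, 6 had no count in any library, Ifnb1 among them, which allows up to 0.0639 CPM at 3 counts in female replicate 3, where 3 counts weigh most. Ifng was the one ligand tested, at between 0.303 and 0.710 CPM. The receptor genes Ifnar1 and Ifnar2 were well above this. Ifnar1 was at 85.6, 68.5 and 70.5 CPM in females and 86.7, 84.0 and 67.2 CPM in males. Ifnar2 was at 86.7, 77.3 and 75.8 CPM in females and 72.6, 75.4 and 77.3 CPM in males. Both overlapped between the sexes. Of the interferon gamma receptor genes, Ifngr1 was at 134, 119 and 124 CPM in females and 122, 115 and 117 CPM in males and overlapped as well. The sexes of Ifngr2 did not overlap, at 67.1, 66.4 and 60.7 CPM in females and 73.9, 79.7 and 78.0 CPM in males (log2 fold change 0.25 ± 0.11, SE, n = 3 per sex; edgeR, adjusted p = 0.466). Ifnlr1, the receptor of interferon lambda, was at 10.3, 10.6 and 6.98 CPM in females and 15.1, 21.5 and 11.7 CPM in males (log2 fold change 0.79 ± 0.25, SE, n = 3 per sex; edgeR, adjusted p = 0.326).

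Socs3, which inhibits the JAK kinases, stood furthest apart among the pathway genes. It was at 10.1, 8.47 and 9.65 CPM in female replicates 1, 2 and 3 and at 15.6, 20.5 and 14.9 CPM in the male replicates. Its log2 fold change was 0.85 ± 0.17 (SE, n = 3 per sex), with an adjusted p of 0.115 in edgeR and 0.00135 in DESeq2. Tlr7, the endosomal receptor of single-stranded RNA, was at 41.0, 39.4 and 41.4 CPM in females and 32.6, 30.1 and 30.5 CPM in males (log2 fold change -0.39 ± 0.11, SE, n = 3 per sex; edgeR, adjusted p = 0.263). The adaptor Mavs was at 36.2, 38.1 and 37.2 CPM in females and 30.4, 25.8 and 30.4 CPM in males. The sexes of both genes did not overlap.

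Irf1, which the interferon gamma signal induces, was at 100.2, 99.2 and 85.3 CPM in females and 81.6, 107 and 87.2 CPM in males. It did not separate by sex. Iigp1, a GTPase of the interferon gamma response, was at 38.2, 34.5 and 32.6 CPM in females and 12.3, 25.5 and 27.9 CPM in males, with every male library below every female one (log2 fold change -0.68 ± 0.25, SE, n = 3 per sex; edgeR, adjusted p = 0.410). Without male replicate 1 the fold change was -0.40.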

How the data were processed

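RNA of cells purified as BECs was measured in 6 libraries, 3 female and 3 male. The values the authors deposited are raw counts per gene, not normalized, with replicates not pooled. The sources differ on how they were made, and on the bone: the labels name the tibia, and the paper's isolation method also names the femur. According to the paper, 100-nucleotide paired-end reads from a total RNA kit were aligned to GRCm39 with STAR and counted with featureCounts. The labels give 40-nucleotide paired-end reads from a directional kit of polyadenylated RNA, and the submitters' processing notes name TopHat2 2.0.11, featureCounts, mm9 and NCBIM37. Read length, annotation and the use of strand can move reads between near-identical or overlapping genes. The paper states that the samples with the best RNA quality were chosen for each group.

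GENCODE M39 (GRCm39) gave the symbols, the positions and, from its canonical transcripts, the lengths, and 31073 of the 37991 identifiers were in it. Males were compared with females in edgeR 4.0.16 (R 4.3.3), with TMM normalization, the filterByExpr default within each sex, robust quasi-likelihood fits, and p-values adjusted by Benjamini-Hochberg over 19480 genes. SE is the log2 fold change over the square root of F. No test was made over the list as a whole. DESeq2 1.42.0 was an alternative, as were other scalings and filters, the replicate number as a block, and each library left out. The fit was tested on simulated data. Counting error is small at 47678806 counts or more a library, so the spread between libraries limits the precision.

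The rule for the 39 genes is a list of names and uses no threshold on measured values, but these genes and the other lists were chosen with earlier results of these data known. Values in every library are given for the 8 of the 39 with the highest mean CPM, the 8 with the smallest unadjusted p, the 3 transcription factors and those whose sexes did not overlap, and for the 5 pathway genes with the smallest unadjusted p beside Ifnar1, Ifnar2, Ifngr1, Ifngr2 and Irf1. The values of 1 other pathway gene are not reported here. Ifna1, Ifna5, Psmb9, Gbp5 and Gbp6 were not analysed here.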

Additional observations from a re-analysis of the deposited data

How the results depend on the processing

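Over the 14 fits, the number of interferon-stimulated genes lower in males at an adjusted p under 0.05 was 0 in each, and the number higher was 0 except with the replicate number as a block, where it was 1 (Oas3, edgeR with the replicate block, adjusted p = 0.0144). Among the pathway genes 1 was higher in males in DESeq2 (Socs3) and 2 with the replicate block (Socs3, adjusted p = 0.0271, and Ifnlr1, adjusted p = 0.0284, in edgeR), beside 0 as reported. Over the whole table, 8 genes passed as reported, 359 in DESeq2, 428 with the replicate block, 98 without a filter on low counts and 96 without male replicate 3. Whether the replicate numbers pair the libraries is not known, and 3 libraries per sex could not settle it. Deviations from the group means correlated between females and males at 0.25, 0.061 and 0.36 for replicates 1, 2 and 3. Among unlike numbers, male replicate 2 correlated with female replicate 1 at 0.16, and all other pairs were negative, between -0.34 and -0.011. At an unadjusted p under 0.05 in edgeR, 6 of the 39 (15.4%) passed with the replicate block, beside 14.1% of all genes. The cause of these differences was not tested. The median log2 fold change of the 39 genes lay between -0.16 and 0.14 when each library in turn was dropped, and that of the other pathway genes between -0.15 and -0.015. Of the 28 genes followed through every alternative, 6 changed sign, each only when a library was left out, with ranges of -0.056 to 0.14 for Trim25, -0.17 to 0.040 for Dtx3l, -0.052 to 0.15 for Irf9, -0.022 to 0.44 for Ifi27l2a, -0.55 to 0.0045 for Irf7 and -0.17 to 0.032 for Irf1. Outside these 28, Zbp1 stood at 0.018 as reported and at -0.026 with the replicate block. Adjusted p over the alternatives ran from 0.0526 to 0.543 for Gbp3, 0.0144 to 1 for Oas3 and 0.124 to 1 for Isg20. The order of replicates was held by 18 genes as reported, 18 with DESeq2 size factors, 17 with abundant genes left out and 12 with total counts alone. With a further C asked of the ISRE, 12 of the 29 genes had a match in place of 14. With 3 libraries per sex, the intervals of Mx2, Ifit1, Oasl1 and Oas3 reached past 2-fold.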

Other observations

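Among the 12935 genes of like level, the gene with the largest rise of replicate 2 over replicate 1 common to both sexes was Ccl8, a chemokine that interferons induce in myeloid cells and not among the 39. Its log2 ratios were 1.52 in females and 1.63 in males. Cxcl10, an interferon-induced chemokine of the pathway list, stood at rank 18 with ratios of 0.68 and 1.63, Oas1g at rank 28 with 0.61 and 0.81, and Ubd, a ubiquitin-like gene induced by interferon gamma, at rank 41 with 0.57 and 0.94. Ubd was highest in replicate 3 in both sexes and Cxcl10 in replicate 3 in females, so neither had replicate 2 highest in both sexes. These genes were picked after the ranking was seen, and most others of the first 50 are on none of the lists used.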
